A study of Mus musculus with 2 samples.

Results

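The cells described here are the PE-high cells that remain once globin-rich cells and cells with myeloid genes are set aside. The rule kept 217 of the 294 cells that the deposited cell table assigns to the PE-high pool, out of 3357 cells in the whole series. A cell was kept with a summed level of the adult globins Hba-a1, Hba-a2, Hbb-bs and Hbb-bt under 20 per 10000 UMIs of the cell, with fewer than 5 UMIs of Mpo (myeloperoxidase, a granule enzyme of neutrophil precursors) and with fewer than 3 UMIs of Ly86, Csf1r and Ccr2 together (monocyte genes). A UMI is a unique molecular identifier, which marks 1 captured RNA molecule. The members were therefore chosen by these measured levels, and the levels of those genes in them are given as description.

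The study profiled single cells of the fetal liver from C57BL/6 mice at E14.5, in embryonic days, with a 10x 3′ version 3 kit. The cells are labelled low in CD71, the transferrin receptor (gene Tfrc), and in CD24 (gene Cd24a). One library pooled 4 isolations that carried antibody-linked hash barcodes: FACS BFU-E and FACS CFU-E, which were sorted by fluorescence, and PE-low and PE-high. The labels name a magnet method beside sorting, without tying it to a pool, and do not spell out PE. A second library, stained with barcoded antibodies, held cells that the table names CS BFUE and CS CFUE. No genotype other than the strain is given, and the embryos are not told apart. The labels also describe growth in erythroid expansion medium with dexamethasone, a glucocorticoid, or methanol. The sources used here do not say whether sequenced cells passed through it, nor how each cell received its pool name. The 4 hashed pools are parts of 1 library, and each pool is a single set of cells without a replicate. No test between pools was therefore possible, no difference below has a replicate check, and the 95% intervals printed cover counting error only.

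Red cell progenitors pass from the burst-forming unit-erythroid (BFU-E), which still shares genes with other early blood progenitors, to the colony-forming unit-erythroid (CFU-E), which depends on erythropoietin, and then to erythroblasts that fill with hemoglobin. Along this path cells gain the transferrin receptor for iron uptake, the transcription factor KLF1 and its targets, the enzymes of heme synthesis and the proteins of the red cell membrane, and they lose KIT and MYB. Globin RNA accumulates late, so a limit on globin removes the most mature cells of a pool.

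The labels tie each of the 4 pools of the hashed library to a hash barcode, shown here because a barcode is what the labels give to tell PE-high from the other pools. Capitals mark the bases at which each of the other barcodes differs from that of PE-high, which is printed in lower case throughout.
PE-high: tatttccacccggtc
PE-low: CaGGtTGTTGTCAtT
FACS BFU-E: AaCCtTTGccACTGc
FACS CFU-E: GTCCGAcTAATAgCT
The barcodes are 15 bases long. The PE-high barcode differs from that of PE-low at 12 bases, from that of FACS BFU-E at 10 and from that of FACS CFU-E at 13. The 2 libraries shared 0 cell barcodes.

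The limits took different cells out of the 4 pools. In PE-high, 58 cells were over the globin limit, 17 had 5 or more Mpo UMIs and 6 had 3 or more monocyte UMIs, with 4 cells over both myeloid limits and 0 over a globin and a myeloid limit. The kept share was 73.8% (exact Clopper-Pearson interval 68.4% to 78.7%). In FACS CFU-E the same limits kept 161 of 167 cells, and the 6 cells lost were all over the globin limit. In PE-low they kept 156 of 208 and in FACS BFU-E 156 of 233, and there all losses were myeloid. PE-high was thus the hashed pool with losses at both ends of the range. The kept PE-high cells held 8469961 UMIs, with a median of 39917 per cell and a range of 16439 to 49914, close to the median of 38335 in FACS CFU-E and above those of PE-low (35776.5) and FACS BFU-E (34069) under the same limits.

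The globin limit cut through a continuum, while the Mpo limit fell in a gap. Just inside the globin limit were cells at 19.95, 19.5 and 18.5 per 10000, and just outside were cells at 20.7, 21.2 and 21.6, with the highest at 484. Of the kept cells, 111 were under 1 per 10000, 28 of them at exactly 0, while 12 lay between 10 and 15 and 10 between 15 and 20. For Mpo, the highest kept value was 2 UMIs and the lowest left out was 9, followed by 12 and 13, with a highest value of 127. For the monocyte genes the kept cells reached 2 UMIs and the lowest values left out were 3, 6 and 20. Moving the globin limit to 10 or 40 per 10000 changed the kept share to 66.3% or 81.6%.

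The markers set for an erythroid progenitor were present in nearly every kept cell. Klf1, which encodes the erythroid transcription factor KLF1, was found in 99.1% of them, with a lowest count of 0, a median of 17 and a highest of 35 UMIs per cell. Tfrc ranged from 1 to 29 UMIs with a median of 11, and Cd24a from 0 to 33 with a median of 12. Epor, the erythropoietin receptor, ranged from 0 to 16 with a median of 6, and Rhd, a blood group protein of the red cell membrane, from 0 to 36 with a median of 10. In the cells left out for myeloid genes the same 5 markers were far lower, with Klf1 at 19.1 CPM (UMIs scaled to 1000000 over a set of cells), Tfrc at 19.1, Epor at 2.12, Rhd at 0 and Cd24a at 67.9. The label holds for the kept set as a whole, with the exception of the 2 cells described further on. Some other cells had 0 UMIs of Epor, Rhd or Cd24a. Both surface proteins by which the cells are labelled low, CD71 and CD24, had clear RNA levels here; RNA says nothing of the amount of protein at the surface.

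To place the cells along the path, a stage index was computed in each cell thinned to 15000 UMIs, as the log2 ratio of the UMIs of 19 late erythroid genes to those of 14 early progenitor genes, with 1 added to each. The late list holds membrane and cytoskeleton genes such as Ank1, Ermap and Hemgn, and the early list holds genes such as Myb, Vim, Runx1 and Gata2. Neither list contains the globins, the myeloid genes of the limits or the 5 markers. In the kept cells Myb alone gave 63.0% of the UMIs of the early list and Ermap 19.8% of those of the late list. Higher values mean more late RNA.

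The kept PE-high cells spread from -5.09 to 5.93 on this index, with a median of 2.58 and the central 80% between 0.80 and 4.67. FACS CFU-E cells under the same limits lay later and were more tightly packed, with a median of 3.39 and the central 80% between 2.07 and 5.03. FACS BFU-E and PE-low lay much earlier, with medians of -1.19 and -1.22. The central 80% of FACS BFU-E ran from -3.49 to 0.74 and that of PE-low from -3.46 to 1.74, so both ended near where the PE-high range began or within its lower part.

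**Figure D1:**
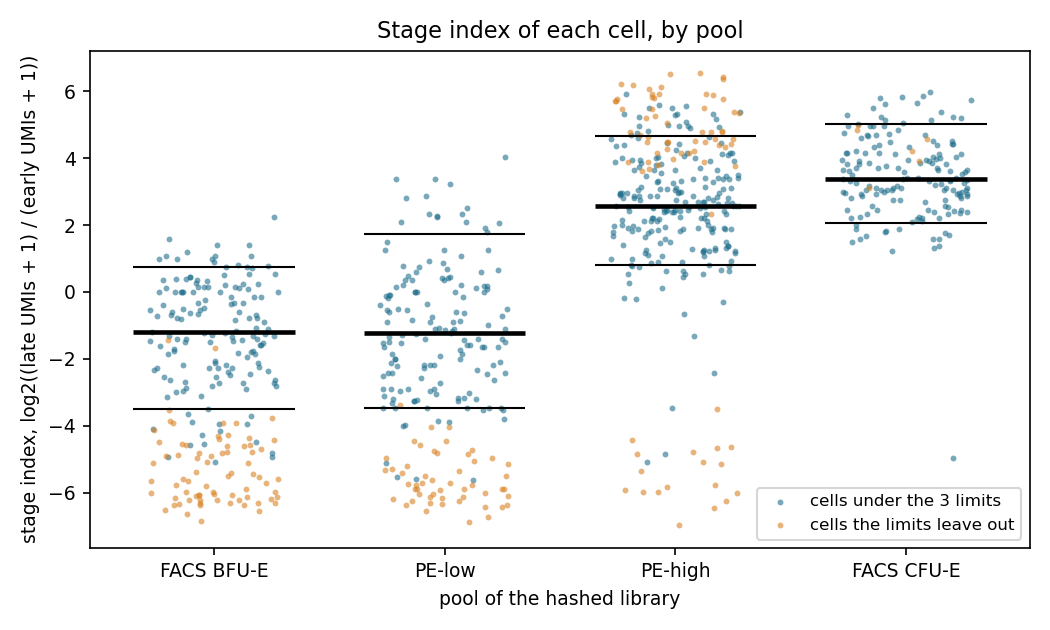
Stage index of each cell (vertical axis, log2 units) in the 4 pools of the hashed library. Each point is a cell, blue under the 3 limits and orange where a limit left it out; the thick line is the median and the thin lines the 10th and 90th percentiles of the blue cells. The blue PE-high cells have a median of 2.58, below the 3.39 of FACS CFU-E, and orange cells stand at both ends of PE-high only.

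Set against the FACS CFU-E range, 129 of the 217 kept PE-high cells (59.4%, exact interval 52.6% to 66.0%) lay between its 10th and 90th percentiles. A further 75 cells (34.6%, 28.3% to 41.3%) lay below the 10th percentile and 13 (5.99%, 3.23% to 10.0%) above the 90th. Set against FACS BFU-E, 86 kept cells (39.6%) lay at or below the highest FACS BFU-E cell, which stood at 2.25, but 5 (2.30%, 0.752% to 5.29%) lay at or below its median. In the other direction, 1 of 151 FACS BFU-E cells and 13 of 153 PE-low cells reached the 10th percentile of FACS CFU-E. The kept pool therefore covered the central range of FACS CFU-E and had a larger share of cells before it than FACS CFU-E. Below the 10th percentile lay 34.6% of kept PE-high cells, beside the 10% of FACS CFU-E that the percentile sets. Few of the kept PE-high cells reached the middle of FACS BFU-E. In unit steps of the index, the kept cells numbered 19 from 0 to 1, 45 from 1 to 2, 63 from 2 to 3, 40 from 3 to 4, 27 from 4 to 5 and 14 from 5 to 6, while FACS CFU-E cells numbered 0, 14, 37, 57, 32 and 17 in the same steps. The share below the FACS CFU-E range depends on how the index is built: it was 23.0% with Myb left out of the early list (an alternative chosen after seeing the data) and 46.5% with the authors' first deposited coordinate in place of the index. In the separately made antibody library, the CS CFUE cells under the same limits had a median of 2.58.

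The globin limit removed late cells but did not mark the late end of the index. The 57 globin-rich PE-high cells deep enough to be thinned had a median index of 4.78, from 2.32 to 6.54. The lowest was 1 cell apart from the rest, with the next at 3.62 and the 5th percentile at 3.75. Of the kept cells, 131 lay at or above that lowest cell and 20 at or above the median of the globin-rich cells. Of the globin-rich cells, 49 lay at or below the highest kept cell and 8 above it. In the index steps 3 to 4, 4 to 5 and 5 to 6, kept cells numbered 40, 27 and 14. Globin-rich cells there numbered 8, 22 and 18. Part of the kept cells thus matched globin-rich ones in the index while staying under the globin limit. The cells left out for myeloid genes lay at the opposite end, with a median of -5.57 and a highest value of -3.50.

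**Figure D2:**
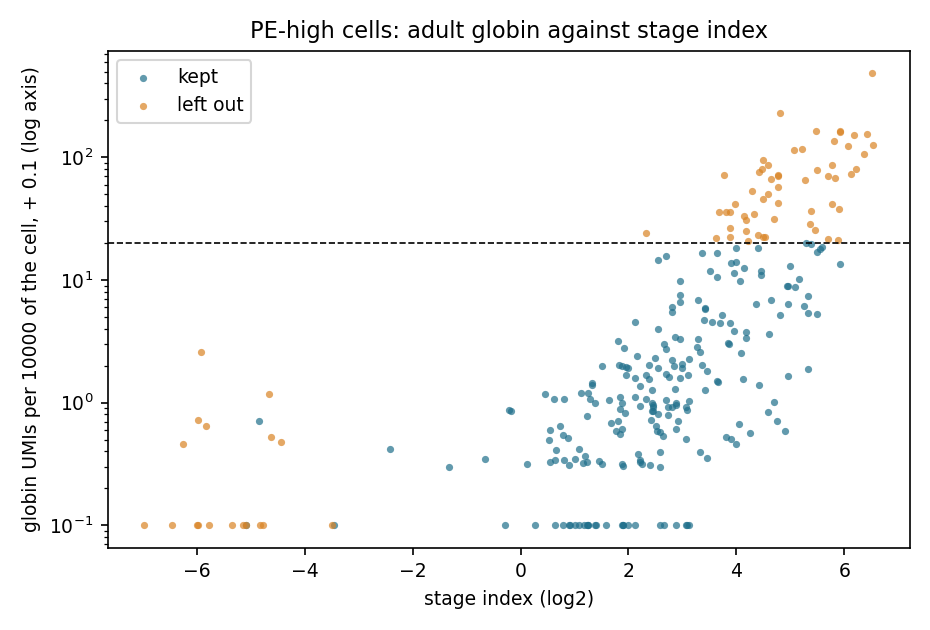
Adult globin UMIs per 10000 of the cell plus 0.1 (vertical axis, log scale) against the stage index (horizontal axis, log2 units) for PE-high cells, blue where kept and orange where left out; the dashed line is the limit of 20. Globin-rich cells overlap the kept cells in index, 1 cell at 2.32 and the others from 3.62 upwards. Cells left out for myeloid genes sit at -3.50 and below.

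At the low end, 9 kept cells had an index below 0, and the 2 lowest held lymphoid RNA in place of Klf1 and Gata1 RNA. The cell at -5.09 had 0 UMIs of Klf1, Epor and Gata1 (which encodes the master erythroid factor GATA1) among 32415, and 27 UMIs of the list of lymphoid markers, 12 of them of Trbc2 (a T cell receptor constant region) and 11 of Nkg7 (a granule protein of killer cells). The cell at -4.86 also had 0 UMIs of Klf1, Epor and Gata1 and carried 117 UMIs of lymphoid markers, among them 44 of Ighm, 30 of Ebf1, 25 of Cd79a and 11 of Cd79b, which are B lineage genes, with 23 UMIs of Cd24a. All kept cells together had 154 lymphoid UMIs. The limits look only at globin and myeloid genes and do not remove such cells. The counts over all genes in the 3 comparisons below were also taken without these 2 cells, an alternative chosen after seeing the data, and the counts moved little: 14 and 5, 147 and 139, and 109 and 128 in the order in which the comparisons follow, with the FACS CFU-E comparison first, PE-low second and the index groups last.

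The other 7 low cells, from -3.46 to -0.18, had erythroid RNA. Each held 5 to 18 UMIs of Klf1 and 2 to 5 of Gata1. The earliest of them, at -3.46 and -2.42, held 8 UMIs of Klf1 each, with 42 and 30 of Vim (vimentin, an intermediate filament protein that erythroid cells lose) and 56 and 49 of Apoe (apolipoprotein E), and 5 and 1 of Gata2 (an early progenitor transcription factor). Vim and Gata2 belong to the early list, so their counts in cells of low index follow in part from the choice of cells. The cells at -3.46 and -2.42 are the only ones of the kept pool with erythroid RNA that reached the middle of the FACS BFU-E range, together with 1 at -1.32. Not every low cell held all 5 markers. The cell at -3.46 had 0 UMIs of Rhd and that at -2.42 had 0 of Rhd and Cd24a. A cell at -0.29 had 0 of Epor, Rhd and Cd24a.

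The spread within the kept pool was described by splitting its cells into 3 groups of like size by the index: a low group of 73 cells (index -5.09 to 1.96), a middle group of 72 (2.00 to 3.12) and a high group of 72 (3.13 to 5.93). Depth did not follow the groups, with median UMIs of 40588, 39757 and 39392. Globin, which the index does not use, had medians of 0.315, 0.905 and 4.82 per 10000, and the cells at 10 or more numbered 0, 2 and 20. The groups come from the RNA of the same cells, so differences between them describe how other genes go with the index and carry no test.

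The 5 erythroid markers all stood higher in the high than in the low group. Rhd (chromosome 4, 134864536 to 134896172, GRCm38.p6) had the widest range, at 163, 277 and 408 CPM, which is 2.50-fold from low to high. Cd24a (chromosome 10, 43579169 to 43584265) stood at 246, 315 and 404 CPM, 1.64-fold. Tfrc (chromosome 16, 32608896 to 32632794) stood at 233, 321 and 347 CPM, 1.49-fold, and its middle and high groups had overlapping intervals (300 to 342 and 325 to 370 CPM). Klf1 (chromosome 8, 84901982 to 84905291) stood at 370, 459 and 526 CPM, 1.42-fold, and Epor (chromosome 9, 21958897 to 21963576) at 136, 146 and 197 CPM, 1.44-fold, with its low and middle groups overlapping (123 to 151 and 132 to 160 CPM). In FACS BFU-E the same markers stood at 57.6 CPM for Rhd, 52.4 for Cd24a, 104 for Tfrc, 272 for Klf1 and 91.2 for Epor. All 5 were thus already higher in the low group than in FACS BFU-E, and in the high group they were above FACS CFU-E, at 361, 369, 325, 491 and 187 CPM in the same order, though the counting intervals overlapped for all but Rhd (384 to 433 against 346 to 377 CPM).

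Kit, the receptor of stem cell factor (chromosome 5, 75574987 to 75656722), went the other way, at 75.04, 59.4 and 31.2 CPM from low to high, beside 103 CPM in the sorted BFU-E pool and 43.4 in the sorted CFU-E pool. Gata2 had a UMI in 9 of 73 low-group cells (12.3%, exact interval 5.80% to 22.1%) after thinning to 15000 UMIs, and in 0 of 72 in each of the other groups (upper bound 4.99%). Without thinning the shares were 21.9%, 5.56% and 0%. Gata2 belongs to the early list of the index, so its order over the groups follows in part from the grouping. The thinned share was 33.8% in the sorted BFU-E pool and 0.633% in the sorted CFU-E pool, at median depths of 34069 and 38335 UMIs.

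**Figure D3:**
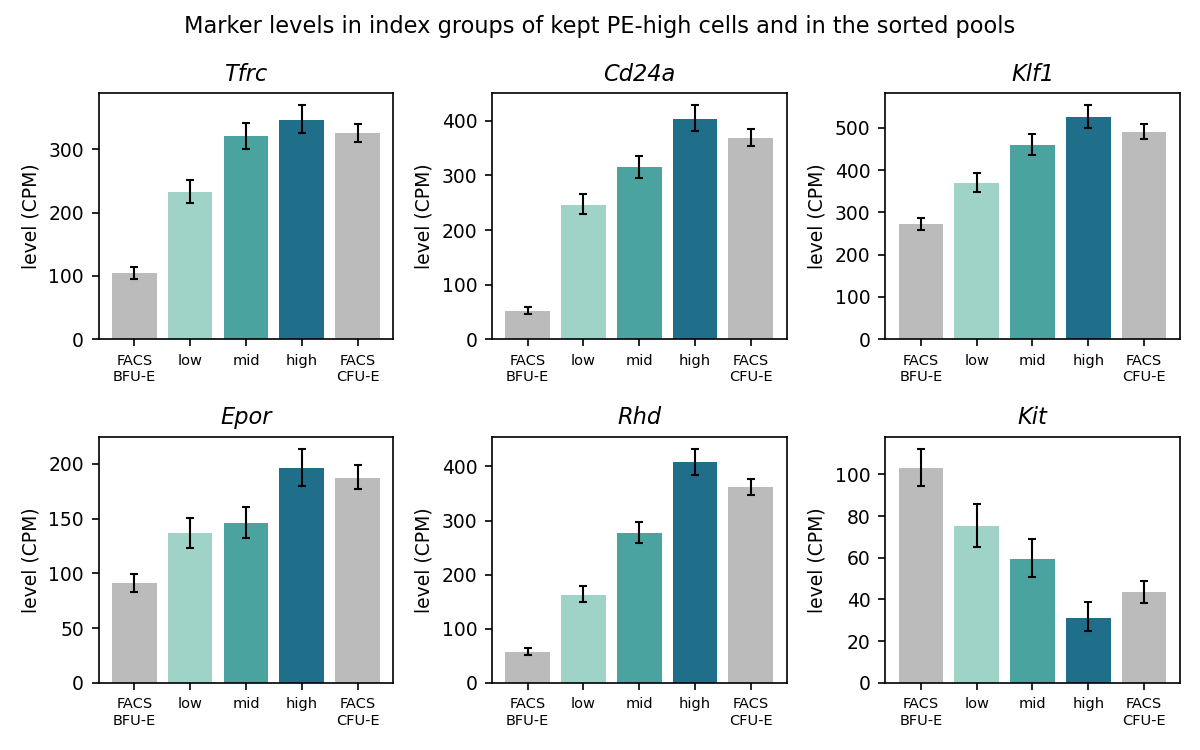
Level in CPM (vertical axes) of the 5 erythroid markers and Kit in the low, middle and high index groups of the kept PE-high cells (green to blue bars) and in the sorted BFU-E and CFU-E pools under the same limits (grey bars), with exact 95% Poisson intervals for counting error. The 5 markers are higher in each group from left to right, Rhd from 163 to 408 CPM, and Kit is lower, from 75.04 to 31.2 CPM.

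The promoters of Klf1, Epor and Rhd are shown because, of the markers with a promoter entry, these 3 have a match to the GATA motif named below. The factors GATA1 and KLF1 are known regulators of erythroid genes. The choice was made after the matches were seen, so that all 3 hold the motif is not a result. Cd24a had no promoter entry among those used, so it was not searched. Each is the 250 bases before the RefSeq start on GRCm38.p6, on the strand of the gene. Capitals mark matches, on either strand, to a GATA motif (AGATAA or TGATAA, and AGATAG or TGATAG) and to the KLF-type motif CCNCACCC.
Klf1, chr8:84901732-84901981, plus strand: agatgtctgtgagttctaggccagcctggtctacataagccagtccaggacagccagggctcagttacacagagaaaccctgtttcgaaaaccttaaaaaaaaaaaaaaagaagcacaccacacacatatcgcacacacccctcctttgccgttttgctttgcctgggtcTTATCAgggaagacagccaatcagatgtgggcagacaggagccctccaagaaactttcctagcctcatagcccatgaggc
Epor, chr9:21963577-21963826, minus strand: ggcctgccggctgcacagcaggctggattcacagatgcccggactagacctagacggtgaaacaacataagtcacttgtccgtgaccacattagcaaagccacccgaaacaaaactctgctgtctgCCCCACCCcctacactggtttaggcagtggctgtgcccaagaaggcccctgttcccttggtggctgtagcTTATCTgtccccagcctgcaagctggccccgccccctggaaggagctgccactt
Rhd, chr4:134864286-134864535, plus strand: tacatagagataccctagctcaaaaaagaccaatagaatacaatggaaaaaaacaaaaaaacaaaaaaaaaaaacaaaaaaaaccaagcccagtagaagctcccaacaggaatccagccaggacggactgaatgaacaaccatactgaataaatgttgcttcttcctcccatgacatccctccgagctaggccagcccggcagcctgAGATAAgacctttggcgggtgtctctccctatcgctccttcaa
Klf1, Epor and Rhd each hold 1 GATA match, which starts 80, 54 and 43 bases before the start, and Epor holds 1 KLF-type match, 124 bases before it. Both Tfrc entries hold 1 KLF-type match and 0 GATA matches. Over all 32851 RefSeq promoter entries of this length, 26.5% hold the GATA motif, 14.9% the KLF-type motif and 2.85% both, so these matches are a description of the sequences and no more.

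Across all genes compared between the high and the low group, 107 of 3346 (3.2%) were at least 1.5-fold higher in the high group and 127 (3.8%) at least 1.5-fold lower. Genes were compared where either group reached 50 CPM and 10% of its cells had a UMI, and the genes of the index and of the limits were left out. For a gene under 50 CPM in one group the direction is thus fixed by the filter. Of the 107 higher genes 60, and of the 127 lower ones 53, were at 50 CPM or more in both groups. With a filter of 20 CPM the counts were 253 and 366, and with 100 CPM 53 and 57; without Myb in the early list they were 81 and 66.

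The genes of heme synthesis were higher in the high group as a list. Of 15 members 12 were compared, and 10 of these were at least 1.5-fold higher in the high group, 6 of them with 50 CPM or more in both groups, against 3.2% of all genes compared; 0 were lower. Their median log2 ratio was 0.84, beside -0.04 over all genes compared. Uros (uroporphyrinogen III synthase) stood at 26.5, 44.1 and 66.7 CPM from low to high, and Fech (ferrochelatase, which inserts the iron) at 107, 136 and 183. Slc25a38, the mitochondrial glycine carrier of heme synthesis, stood at 53.8, 88.3 and 112 CPM. Urod and Cpox were higher by less than 1.5-fold, at 1.48 and 1.41.

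Alas2, the erythroid enzyme of the first step of heme synthesis, did not reach the level filter. It stood at 1.05, 1.74 and 4.03 CPM in the 3 groups and at 30.6 CPM in the globin-rich cells left out. Slc4a1, the band 3 anion exchanger of the mature membrane, had the same form, at 0.698, 2.78 and 10.6 CPM beside 147 in the globin-rich cells; it belongs to the late list of the index. The embryonic globins gave 2 UMIs in all 217 kept cells. Alas2 and Slc4a1 were thus lower in each group of kept cells than in the globin-rich ones, which overlap the kept cells in the index. Over all kept cells, enzymes of later steps of heme synthesis stood at 681 CPM for Cpox and 141 CPM for Fech, beside 2.24 for Alas2. Alas1, the other enzyme of the first step, stood at 11.3 CPM, with 12.2, 14.2 and 7.33 CPM from the low to the high group.

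Iron handling genes were higher in the high group in sum, but few single genes were past 1.5-fold. The list summed to 7270, 8817 and 10470 CPM. Of 16 members 10 were compared and 2 were at least 1.5-fold higher, against 3.2% of all genes, 1 of them with 50 CPM or more in both groups: Slc25a37 (mitoferrin 1, the mitochondrial iron importer), at 33.5, 45.5 and 91.7 CPM, and Fth1 (ferritin heavy chain), which was 1.64-fold higher. Ftl1 (ferritin light chain) was 1.497-fold higher, just short of the limit, and Slc11a2, an iron transporter, stood at 60.7, 60.5 and 57.9 CPM. Among late erythroid enzymes and related genes, 5 of 11 compared were at least 1.5-fold higher, against 3.2% of all genes, with 50 CPM or more in both groups, and 0 were lower: Icam4 (an erythroid adhesion protein, 1.98-fold), Rhag (the Rh-associated glycoprotein, 1.86-fold), Car2 (carbonic anhydrase 2, 1.67-fold), Blvrb (biliverdin reductase B, 1.61-fold) and Prdx2 (peroxiredoxin 2, 1.57-fold). Bnip3l, which encodes a receptor for the removal of mitochondria, stood at 190, 193 and 206 CPM.

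The transcription factors of the erythroid programme differed in direction and size. Of 12 compared, 0 were at least 1.5-fold higher, against 3.2% of all genes, and 1, Cbfa2t3 (the corepressor ETO2), was lower, at 115 CPM in the low and 52.4 in the high group, against 3.8% of all genes. These counts are near the shares over all genes. Gata1 stood at 110, 113 and 108 CPM, Tal1 at 110, 140 and 127 and Bcl11a, a repressor of embryonic globin, at 271, 286 and 244. Sox6, a late erythroid factor, was under the level filter but ordered by group, at 4.19, 11.1 and 29.0 CPM, beside 70.3 in the globin-rich cells.

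Some growth genes were lower at a high index. Of 15 compared genes of the MYC and nucleolus list, 3 were at least 1.5-fold lower in the high group, against 3.8% of all genes, and 0 were higher: Nme2 (a nucleoside diphosphate kinase, 1.78-fold lower), Myc itself (1.70-fold lower, at 129, 122 and 75.9 CPM) and Wdr12 (a ribosome assembly factor, 1.53-fold lower). Of 12 compared glycolysis genes, 3 were at least 1.5-fold lower, against 3.8% of all genes, and 0 were that much higher. The 3 were Pkm (1.86-fold), Pgk1 (1.60-fold) and Pgam1 (1.58-fold), while Pklr, the pyruvate kinase of red cells, was 1.48-fold higher. Of 4 compared genes in the list of G1 regulators, 2 were at least 1.5-fold lower, against 3.8% of all genes, and 1 higher, against 3.2%. Cdk6 was 2.24-fold and Ccnd2 (cyclin D2) 1.69-fold lower, and Ccnd3 (cyclin D3) was 1.59-fold higher. Cdk4 was at 514 CPM in the low group and 515 in the high one.

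Cell cycle genes differed little. The S phase list summed to 7063, 7558 and 8077 CPM, a ratio of 1.14 from low to high (counting interval 1.12 to 1.17), and 2 of 41 compared members, E2f8 and Rad51ap1, were at least 1.5-fold higher, a share near the 3.2% of all genes, with 1 of them at 50 CPM or more in both groups. The G2/M list summed to 10108, 10706 and 11083 CPM, a ratio of 1.10 (1.08 to 1.11), with 0 of 36 past 1.5-fold. For the cells left out for globin the S phase and G2/M lists summed to 8729 and 13876 CPM, above every group of kept cells.

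**Figure D4:**
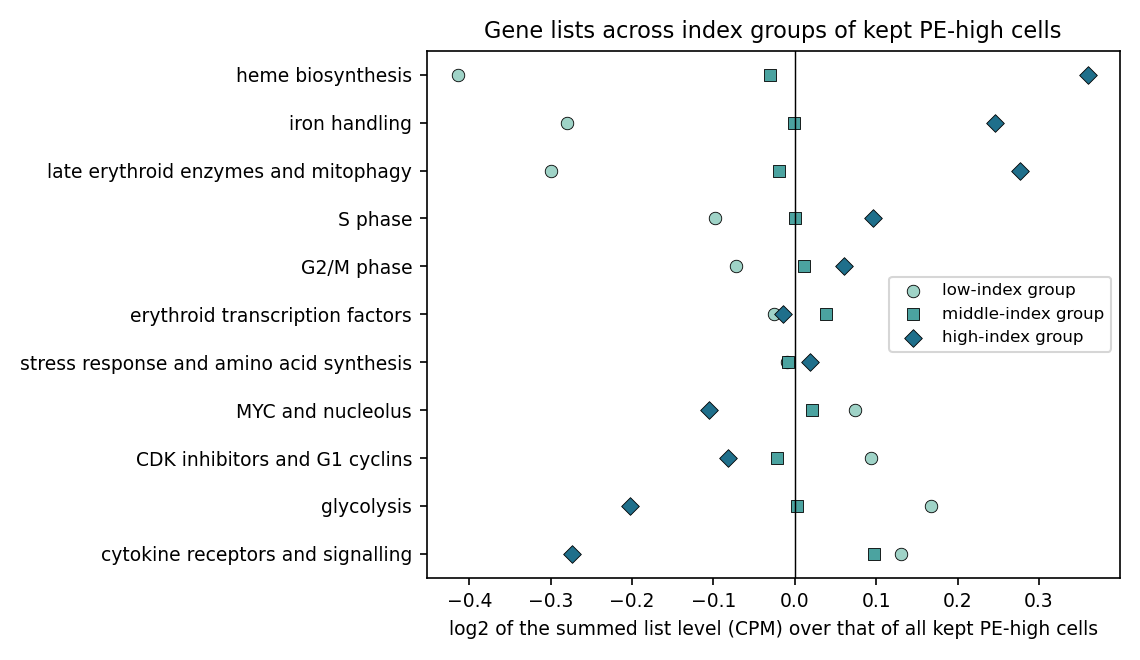
Summed level of 11 gene lists (rows) in the low, middle and high index groups, as the log2 ratio to the summed level in all kept PE-high cells (horizontal axis). Heme, iron and late enzyme lists are highest in the high group, glycolysis and cytokine receptor lists lowest there, and the transcription factor list stays within 0.05 of 0 in all 3 groups.

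Among the genes compared, with index and limit genes left out, most of the widest ratios between the groups belonged to genes outside these lists. Higher in the high group were Slc30a10, a manganese exporter (19.2, 40.3 and 62.3 CPM, 3.25-fold), Redrum, an erythroid long noncoding RNA (2.99-fold), Rgcc, a cell cycle regulator (199, 450 and 591 CPM, 2.97-fold) and Mgst3 (a microsomal glutathione transferase, 2.75-fold). Lower there were Apoe (157 to 9.90 CPM, 15.9-fold lower), Ptprcap (a partner of the leukocyte phosphatase CD45, 13.3-fold), Cmtm7 (a membrane protein of the MARVEL group, 10.3-fold), Ass1 (argininosuccinate synthase, 87.3, 31.3 and 9.53 CPM, 9.15-fold), Arhgdib (7.29-fold) and S100a10 (5.09-fold). Each of these 6 was under 50 CPM in the high group.

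Against PE-low, the kept PE-high cells were 1.5-fold or more higher at 141 of 3380 genes (4.17%) and lower at 138 (4.08%). Of the 141 higher genes 72, and of the 138 lower ones 61, were at 50 CPM or more in both pools. For the rest, Vim below among them, the direction is fixed by the filter. Counts for all cells of both pools, before the limits, were 201 and 239. All 5 erythroid markers were past 1.5-fold: Cd24a 3.89-fold (321 against 82.5 CPM), Rhd 3.52-fold (281 against 79.7), Tfrc (299 against 128), Klf1 (451 against 278) and Epor (159 against 101). Heme synthesis had 7 of 9 compared genes higher and 0 lower, 4 of them with 50 CPM or more in both pools, among them Fech (2.18-fold) and Cpox (1.97-fold). Of 14 compared transcription factors of the erythroid programme, 1 was higher and 3 were lower, against 4.17% and 4.08% of all genes. Of those called, 2 were at 50 CPM or more in both pools. Zbtb7a, a repressor of fetal globin in humans, was 1.60-fold higher, and Cbfa2t3, Nfe2 and Mef2c were lower (1.73-fold, 2.03-fold and 4.03-fold). The lowest ratios belonged to Vim (21.4 against 428 CPM, 20.03-fold lower), Apoe (63.3 against 880, 13.9-fold lower) and Gmfg (12.5-fold lower). Endothelium and stroma markers summed to 0.472 CPM in kept PE-high and 101 CPM in PE-low, where 27 of 156 cells had any, the median cell was at 0 and 1 cell reached 147 per 10000. Megakaryocyte markers summed to 14.4 and 71.4 CPM. The part of either list in the lower counts was not tested.

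The calls against PE-low and between the index groups overlapped in part. Of the 141 genes higher against PE-low and the 107 higher in the high group, 55 were shared (39.0% of the first and 51.4% of the second), and of the 138 and 127 lower ones 47 were shared (34.1% and 37.0%). Both comparisons use the kept PE-high cells, so the overlap is a description and nothing is read from it. A gene of the index could be counted against PE-low only.

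Against FACS CFU-E, the hashed pool nearest in median index, the kept PE-high cells differed at few genes: 14 of 3274 (0.428%) were at least 1.5-fold higher and 5 (0.153%) at least 1.5-fold lower, and 99.4% of genes lay between. The higher genes were led by Apoe (63.3 against 10.3 CPM, 6.14-fold, counting interval 4.71 to 8.12), Cmtm7 (65.2 against 17.1, 3.80-fold), S100a10 (58.0 against 24.8, 2.34-fold), Cyba (a subunit of the phagocyte oxidase, 63.5 against 29.6, 2.15-fold), Ptprcap (2.09-fold) and Sptssa (a subunit of serine palmitoyltransferase, 2.09-fold). Arhgdib, Syngr2, Gm15915, H2afy, Ifngr1, Arpc1b, Myb and Ifitm2 followed, at 1.94-fold to 1.63-fold; Myb and Ifitm2 were 1.65-fold and 1.63-fold higher. Of these 14 genes, 4 were at 50 CPM or more in both pools. Before the limits, with all cells of both pools, the counts were 23 and 4.

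None of the 5 erythroid markers was past 1.5-fold in this comparison, and all 5 were lower in kept PE-high: Rhd at 0.777 of the FACS CFU-E level, Epor 0.848, Cd24a 0.870, Klf1 0.918 and Tfrc at 299 against 325 CPM. In the heme list 0 of 10 compared genes were past 1.5-fold, and in the S phase and G2/M lists 0 of 40 and 0 of 37. These counts, and that of the markers, are near the shares over all genes, 0.428% higher and 0.153% lower. The heme list had a median log2 ratio of -0.26, beside 0.02 over all genes. Over all genes compared, few were past 1.5-fold, and the 5 markers and the heme list stood at slightly lower levels.

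All 14 genes higher than in FACS CFU-E were also genes that varied along the index inside the kept pool, each at least 1.5-fold lower in the high than in the low group; for Myb, which is part of the index, this follows from the grouping. All 14 were also at least 1.5-fold lower than in PE-low. Over all genes compared, 3.8% were that much lower in the high group and 4.08% against PE-low. Most of the 14 were under 50 CPM in the high group, where the filter fixes the direction. All these comparisons use the kept PE-high cells, so the shared calls are a description. The comparison with FACS CFU-E was repeated, as an alternative chosen after seeing the data, in cells with an index of 2 to 4 in both pools, 103 of PE-high and 94 of FACS CFU-E. In this band 1 of 3290 genes (0.0304%), Tbc1d15 (1.55-fold), was higher and 6 (0.182%) were lower. Of the 14 genes, 5 still met the level filter in the band and 0 of these were past 1.5-fold; among the 9 under the filter, Apoe (1.86-fold, counting interval 1.22 to 2.91) and Cmtm7 (1.80-fold, 1.32 to 2.50) were past it. Arhgdib went from 1.94-fold to 1.02-fold and Ptprcap from 2.09-fold to 1.10-fold. Since the band is set on RNA of the same cells, this says how the ratios go with the index and is no test.

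**Figure D5:**
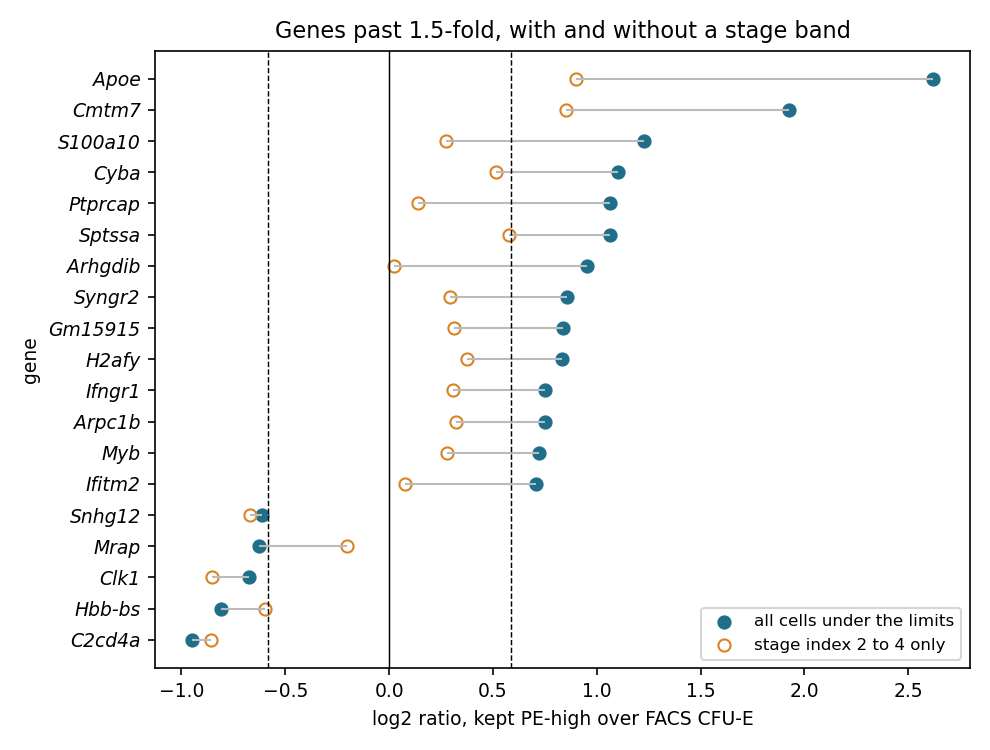
Log2 ratio of kept PE-high over FACS CFU-E (horizontal axis) for the 19 genes past 1.5-fold, in all cells under the limits (filled blue) and in cells with a stage index of 2 to 4 (open orange); dashed lines mark 1.5-fold either way. The 14 higher genes move toward 0 in the band, Apoe from 2.62 to 0.90, while Snhg12, Clk1 and C2cd4a stay beyond the line.

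Of the lower genes, C2cd4a and Mrap belong to the late list of the index and Hbb-bs to the globin limit, so the band is set in part on their own RNA or that of the limit. C2cd4a, Clk1 (a splicing kinase), Snhg12 (a noncoding RNA host of small nucleolar RNAs) and Hbb-bs were lower in kept PE-high than in FACS CFU-E both in all cells, by 1.93-fold, 1.60-fold, 1.53-fold and 1.75-fold, and in the band, by 1.81-fold, 1.81-fold, 1.59-fold and 1.51-fold, so 4 of the 5 were shared. Clk1 and Snhg12 are in neither the index nor the limits. Mrap, the fifth, was 1.54-fold lower in all cells and 1.15-fold lower in the band. Hbb-bs has a near-identical neighbour, Hbb-bt, which stood at 127 against 136 CPM. How reads were assigned between them was not examined, so the value of either alone is uncertain, and both are genes of the globin limit. Xist, the X inactivation RNA of female cells, was 1.85-fold lower in the band (149 against 275 CPM) and 1.39-fold lower in all cells. The sources used here do not give the sex of the embryos behind each pool.

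Levels of immediate early and dissociation genes, which respond to handling of cells, were low in kept PE-high. The list of 20 summed to 194 CPM in kept PE-high and 291 in FACS CFU-E, with PE-low at 198 and FACS BFU-E at 730. Only Jund met the level filter, and it was not past 1.5-fold, so the list had 0 of 1 genes past it. Without the filter, 15 of the 20 stood lower in kept PE-high than in FACS CFU-E, 2 higher and 3 were at 0 in both; Egr1 was one of the higher ones, at 1.65 against 0.665 CPM. Jun stood at 4.72 CPM (40 UMIs) against 30.6 (184 UMIs), 6.48-fold lower (counting interval 4.58 to 9.36), and in the band it was 6.86-fold lower (4.14 to 12.02). Within the kept pool it was even, at 5.58, 4.52 and 4.03 CPM from the low to the high group. In cells thinned to 15000 UMIs, 7.37% of kept PE-high and 25.9% of FACS CFU-E cells had a Jun UMI, beside 9.15% of PE-low and 60.3% of FACS BFU-E. Hspa1a, a heat shock protein, stood at 1.53 against 14.1 CPM. Egr1 had another order, with a UMI in 2.76% of kept PE-high, 1.27% of FACS CFU-E and 3.92% of PE-low cells after the same thinning. Jun, Hspa1a and Egr1 were below the level filter and are named after their values were seen.

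RNA of most other cell types was scarce in the kept pool, while the stem cell list stood higher. Granulocyte markers summed to 9.09 CPM and monocyte and macrophage markers to 6.49 CPM, with 2 and 4 members at 0, beside 4113 and 1899 CPM in the cells left out for myeloid genes; some of these markers are genes of the limits. Hepatocyte markers summed to 3.19 CPM, mast cell and basophil markers to 0.236 CPM and endothelium and stroma markers to 0.472 CPM, with 7 of 9 of the last list at 0. Megakaryocyte markers summed to 14.4 CPM and lymphoid markers to 18.2 CPM. Stem cell markers summed to 107 CPM in kept PE-high, beside 78.2 in PE-low and 123 in FACS CFU-E. Within the kept pool they summed to 84.8 CPM in the low and 132 in the high group. In the low group the granulocyte, monocyte and lymphoid lists summed to 13.3, 14.3 and 53.1 CPM, and in the high group to 5.87, 3.30 and 0.367 CPM. The monocyte and lymphoid values of the low group include the 2 cells without Klf1 RNA, which hold 13 and 19 monocyte UMIs of the 41 in that group and 27 and 117 of its 152 lymphoid UMIs.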

How the data were processed

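Single-cell RNA was measured in 2 libraries, of which the hashed one holds the PE-high pool. The authors deposited natural log values for cells against genes, as ln(1 + x) with x in UMIs per 10000 of the cell. The authors also deposited a score, 2 coordinates per cell named as corrected principal components; the first served as an alternative to the stage index; the correction is not described. The deposited cell table gives the pool name. The submitters' processing notes name Cell Ranger 4.0.0, Scanpy and mm10; the sources used here do not give the filters. UMIs were recovered from the smallest value of each cell: 100% of 16419767 nonzero values came out whole within 0.02. A symbol was found for 17592 of 17608 gene IDs. Cells with the other barcode suffix were placed in the antibody library by elimination. No doublet caller was run.

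UMIs were pooled over the cells of a set as CPM. Genes at 50 CPM and with a UMI in 10% of cells, in either set, were compared at a fold limit of 1.5. Levels, ratios and shares carry exact Poisson, conditional binomial and Clopper-Pearson intervals at 95%. A side at 0 was set to 3 counts, which no counted gene needed. For the stage index 3 FACS CFU-E, 3 PE-low and 5 FACS BFU-E cells under 15000 UMIs were left out. Named genes are the 12 highest and 12 lowest past 1.5-fold, up to 4 of each of 27 lists by size of ratio, and the markers with Kit; others are named for their role in a list or after their values were seen. The members and lists were chosen with earlier results of these data known. Alternatives were other limits, gene filters, weights per cell, scaling by a trimmed mean of M-values, indices and cells. The scripts were tested on simulated data and ran with numpy 2.4.6, scipy 1.17.1 and pandas 2.3.3. Positions and promoters are from RefSeq (GRCm38.p6). A few genes named by this rule are left out of the text.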

Additional observations from a re-analysis of the deposited data

How the results depend on the processing

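Of 62 values taken under an alternative, 37 kept their size and 25 moved. The kept share was 66.3% at a globin limit of 10 and 81.6% at 40 per 10000. Against FACS CFU-E, the higher and lower counts were 35 and 17 with a filter of 20 CPM and 4 and 1 with 100 CPM; all cells of both pools gave 23 higher, and the band of index 2 to 4 gave 1 higher. Against PE-low the counts were 285 and 363 at 20 CPM and 79 and 58 at 100 CPM, and all cells gave 239 lower. Between the index groups they were 253 and 366 at 20 CPM and 53 and 57 at 100 CPM, and 66 lower without Myb in the early list. The share below the FACS CFU-E range was 26.7% when thinned to 10000 UMIs, 46.5% with the deposited coordinate and 23.0% without Myb. The S phase ratio was 1.10 without Myb. The G2/M ratio was 1.15 with the coordinate, 1.04 at 10000 UMIs and 1.07 without Myb. The cause was not tested, apart from the filters, which change how many genes are compared. The share of higher genes among those past 1.5-fold against FACS CFU-E was 73.7%, 85.2% with all cells and 14.3% in the band. Scaling by a trimmed mean of M-values moved log2 ratios by 0.03 against FACS CFU-E and -0.06 against PE-low, and gave 14 and 6 and 158 and 124 genes. Without the 2 cells of index under -4 no count moved by 1.5 times. The alternatives without Myb, in the band and without those 2 cells were chosen after seeing the data. No paired analysis was possible because each pool is a single set of cells without a replicate. Genes of a few CPM rest on few UMIs, such as the 40 of Jun in the kept cells.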
